A study of Arabidopsis thaliana with 10 samples.

Results

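Brassinolide (BL), the most active brassinosteroid, was given for 6 h to Arabidopsis thaliana seedlings of the wild-type accession Columbia-0 (Col-0), at 100 nM, and their messenger RNA was compared with that of Col-0 seedlings given mock. Each group had 2 libraries, made from whole plants that were 12 days old and had grown on half-strength MS medium at 23 °C under 16 h of light and 8 h of dark. Both groups were wild type, with no transgene. The control is written both as mock and as non-treatment in the labels, and mock is the name used here. The same series holds untreated wild-type Col-0 and 2 lines in the Columbia-0 background, 35S-BEH2-YFP and 35S-BZR1-YFP, all untreated and with 2 libraries each. The 35S promoter drives the fusion proteins in most cell types, and the labels do not say how many independent transformants were used. The deposited table gives 1 value per gene and group, in FPKM (fragments mapped to a gene, scaled to its transcript length and to the size of the library), pooled by the authors over the 2 libraries, so depth is unknown and no spread between libraries can be shown. Members of the experiment are the protein-coding genes whose larger group value was at least 1 FPKM, which left 19367 of 27560 protein-coding genes and of 38303 genes in all. A gene is called, and is said to rise or fall, where the authors' deposited table gives a q-value (the p-value adjusted over genes) below 0.05. That q-value measures only the spread between the libraries used, which the labels number as biological replicates. The effect of a gene is log2 of the ratio of BL to mock after 0.5 FPKM was added to both. The log2 change given for single genes is without that addition, and the number after ± is its standard error as implied by the deposited test statistic.

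Brassinosteroids are steroid hormones of plants that promote cell elongation and division. They bind the receptor kinase BRI1 at the cell surface, which pairs with BAK1, and the signal turns off the kinase BIN2. Without BIN2 activity the transcription factors BZR1, BES1 and BEH1 to BEH4 stay in the nucleus, where they bind the motifs CGTGTG and CGTGCG and the G-box CACGTG, repress genes of hormone synthesis and activate genes of the growing cell wall. In seedlings the hormone is best known for the growth of hypocotyl and petiole, and in roots it acts on meristem size and on the choice between hair and non-hair cells.

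The 250 bases before the gene start are shown for the 6 genes with the largest falls among the named genes that hold one of the BZR motifs there, to show the motifs in genes of large response. The sequences are from RefSeq, build TAIR10.1, and run 5′ to 3′ on the gene's strand, with matches on either strand to the BZR motifs and the G-box in capitals. Read from the other strand, CGTGTG appears as CACACG. A match to the G-box can overlap one to CGTGTG. BEH2 lies at chr4:17334356-17334605 on the minus strand, AT5G06630 at chr5:2037856-2038105 on the minus strand, EXT10 at chr5:2041929-2042178 on the minus strand, AT5G66080 at chr5:26425449-26425698 on the minus strand, NUDX25 at chr1:10581485-10581734 on the plus strand and EXT6 at chr2:10622146-10622395 on the plus strand.
BEH2: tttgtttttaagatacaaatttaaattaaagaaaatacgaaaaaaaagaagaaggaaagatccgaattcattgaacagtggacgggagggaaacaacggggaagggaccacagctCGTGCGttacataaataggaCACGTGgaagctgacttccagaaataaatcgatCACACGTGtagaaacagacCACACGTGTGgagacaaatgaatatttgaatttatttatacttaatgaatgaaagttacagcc
AT5G06630: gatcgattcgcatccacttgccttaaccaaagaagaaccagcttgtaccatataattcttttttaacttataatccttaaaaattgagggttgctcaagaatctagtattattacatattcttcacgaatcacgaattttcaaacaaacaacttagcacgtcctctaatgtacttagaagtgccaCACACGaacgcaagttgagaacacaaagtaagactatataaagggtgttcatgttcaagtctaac
EXT10: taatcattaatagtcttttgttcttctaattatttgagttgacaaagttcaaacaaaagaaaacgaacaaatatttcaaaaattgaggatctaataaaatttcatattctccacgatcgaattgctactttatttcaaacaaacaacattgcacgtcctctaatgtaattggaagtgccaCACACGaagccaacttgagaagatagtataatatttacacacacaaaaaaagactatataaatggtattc
AT5G66080: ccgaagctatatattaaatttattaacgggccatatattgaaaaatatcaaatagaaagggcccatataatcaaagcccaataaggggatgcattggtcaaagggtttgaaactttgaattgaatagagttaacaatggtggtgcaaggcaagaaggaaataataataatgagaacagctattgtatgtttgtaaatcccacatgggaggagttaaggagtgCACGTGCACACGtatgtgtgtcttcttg
NUDX25: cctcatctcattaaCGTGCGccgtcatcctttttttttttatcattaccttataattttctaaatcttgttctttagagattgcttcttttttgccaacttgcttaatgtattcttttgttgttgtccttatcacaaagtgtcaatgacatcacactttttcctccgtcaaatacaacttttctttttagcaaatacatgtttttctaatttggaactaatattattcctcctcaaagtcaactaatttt
EXT6: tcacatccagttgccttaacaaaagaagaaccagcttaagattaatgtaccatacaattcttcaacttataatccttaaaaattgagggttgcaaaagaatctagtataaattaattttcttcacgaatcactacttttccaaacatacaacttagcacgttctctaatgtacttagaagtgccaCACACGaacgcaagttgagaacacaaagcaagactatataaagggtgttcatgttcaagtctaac
BEH2, one of the BZR family of factors, held 3 copies of CGTGTG, 1 of CGTGCG and 3 of the G-box, the most of the 6. AT5G06630, EXT10 and EXT6, all extensins of the cell wall, held 1 CGTGTG each and no G-box, and in all 3 the match lies within the same stretch, gaagtgccaCACACGaa. AT5G66080, a protein phosphatase 2C that fell from 3.21 to 0.201 FPKM, held 1 CGTGTG beside a G-box. NUDX25, a nudix hydrolase that fell from 69.0 to 13.5 FPKM, held 1 CGTGCG. A match describes the letters of this window and does not show that a factor binds there.

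The response to 6 h of hormone was moderate in size and went both ways. Of the 19367 members, 1201 were called (6.20%), 670 higher (3.46%) and 531 lower (2.74%), against 5.46% of all genes tested. A test was missing for 8 members, and 2752 had an unadjusted p-value under 0.05 in the authors' deposited table. The median fold was 1.78 among the genes that rose and 1.79 among those that fell. At least 2-fold were 230 of the rises and 213 of the falls, at least 4-fold were 32 and 44, and under 1.5-fold were 111 and 84. Genes that rose went from a median of 14.1 to 25.6 FPKM, and genes that fell went from 16.9 to 8.94 FPKM. Over all members the median effect was 0.0056, and the 5th and 95th percentiles were -0.46 and 0.51, so most genes stayed within a narrow band around no change.

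**Figure D1:**
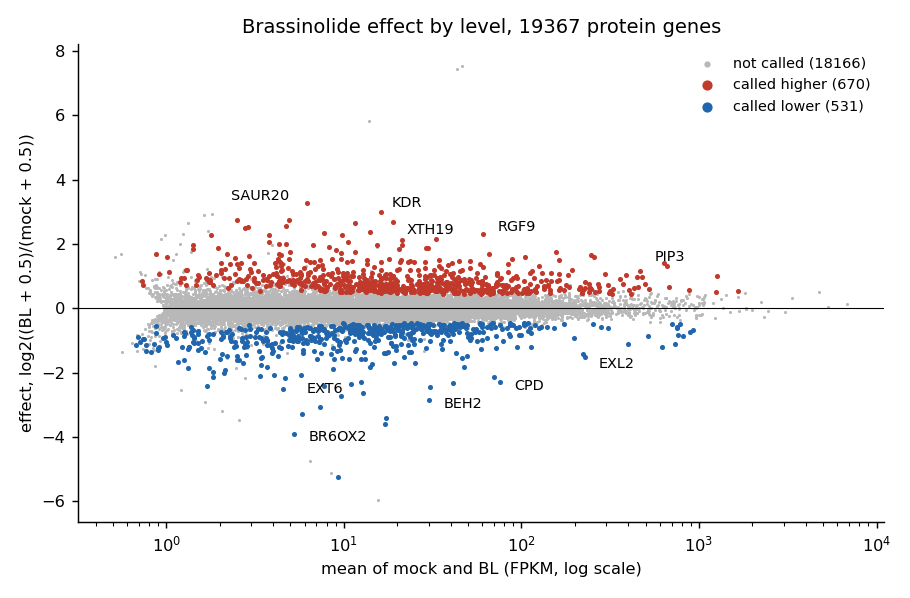
Effect of brassinolide (log2 of the ratio after adding 0.5 FPKM, vertical axis) against the mean FPKM of both groups (log axis) for the members, with the called genes in colour. Called genes lie both above and below 0 over most of the range of levels, with 670 higher and 531 lower, and the 2 highest points, AT4G31441 and psbI, which are listed at 0 in mock, were not called.

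How small a change could be called depended on the level of the gene. Below a mean of 1 FPKM the median standard error of the log2 change was 0.423 and the called genes had a median fold of 3.47, whereas at a mean of 100 FPKM and above these were 0.153 and 1.58. From 1 to 5 FPKM the median standard error was 0.289 and the median fold of the called genes 2.38. The share called was 9.77% of 215 genes below 1 FPKM (4 higher and 17 lower), 5.25% of 4285 genes from 1 to 5 FPKM and 9.38% of 1269 genes at 100 FPKM and above. Each member below a mean of 1 FPKM passed the floor through 1 group alone, so its groups had to differ. The share called and the fold at that level therefore cannot be set against those of the other levels. The floor of 1 FPKM let in 294 members through the mock value alone, of which 59 were called, and 225 through the BL value alone, of which 30 were called. Genes let in through mock alone had to be lower with BL, and those let in through BL alone had to be higher. Just inside the floor were AT1G78172 (0.949 and 1.00 FPKM in mock and BL), AT5G44990 (0.781 and 1.00 FPKM) and AT2G10930 (1.00 and 0.774 FPKM), and just outside it AT1G50390 (0.893 and 1.00 FPKM), AT3G14380 (0.0111 and 1.00 FPKM) and AT4G37850 (0.665 and 1.00 FPKM). Of the members, 16 were listed at 0 in 1 group, of which 7 had no test and 1 was called, AT1G14642, a hypothetical protein listed at 18.5 FPKM in mock and at 0 in BL. Of these 16, 4 were organellar genes, among them psbI (0 and 93.1 FPKM) and rpl36 (30.9 and 0 FPKM), and neither of these was called.

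Markers of the organs present in a whole seedling were measured in both groups. The leaf genes CAB1 (5233 FPKM in mock and 5362 in BL) and RBCS1A (6534 and 7162 FPKM), the phloem gene SUC2 (126 and 142 FPKM), the root endodermis gene SCR (18.3 and 18.1 FPKM), the epidermis gene ATML1 (23.9 and 30.9 FPKM) and the root phosphate transporter PHT1;1 (75.0 and 91.6 FPKM) were not called. The floral genes AP1 (0.855 and 0.901 FPKM) and AG (0.280 and 0.321 FPKM) and the seed storage gene CRA1 (0.0189 and 0.0445 FPKM) were under 1 FPKM. Of the root hair markers, the expansins EXPA7 (8.86 to 4.23 FPKM) and EXPA18 (8.58 to 3.18 FPKM) fell, and SHV2 (3.42 and 2.37 FPKM) was not called. In whole seedlings fewer cells of a type and less RNA per cell cannot be told apart, and this holds for every result on root hair genes given here.

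Members were sorted into 90 functions by words in their annotated names. These functions held 7314 members and 703 of the called genes, and 7 functions had no called member. Among functions with at least 10 members, the highest shares of called genes were in the extensins, root hair specific proteins, xyloglucan endotransglucosylases, SAUR proteins, expansins, arabinogalactan and fasciclin-like proteins and aquaporins. The lowest were in the functions with none and in the ribosomal and pentatricopeptide repeat proteins.

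**Figure D2:**
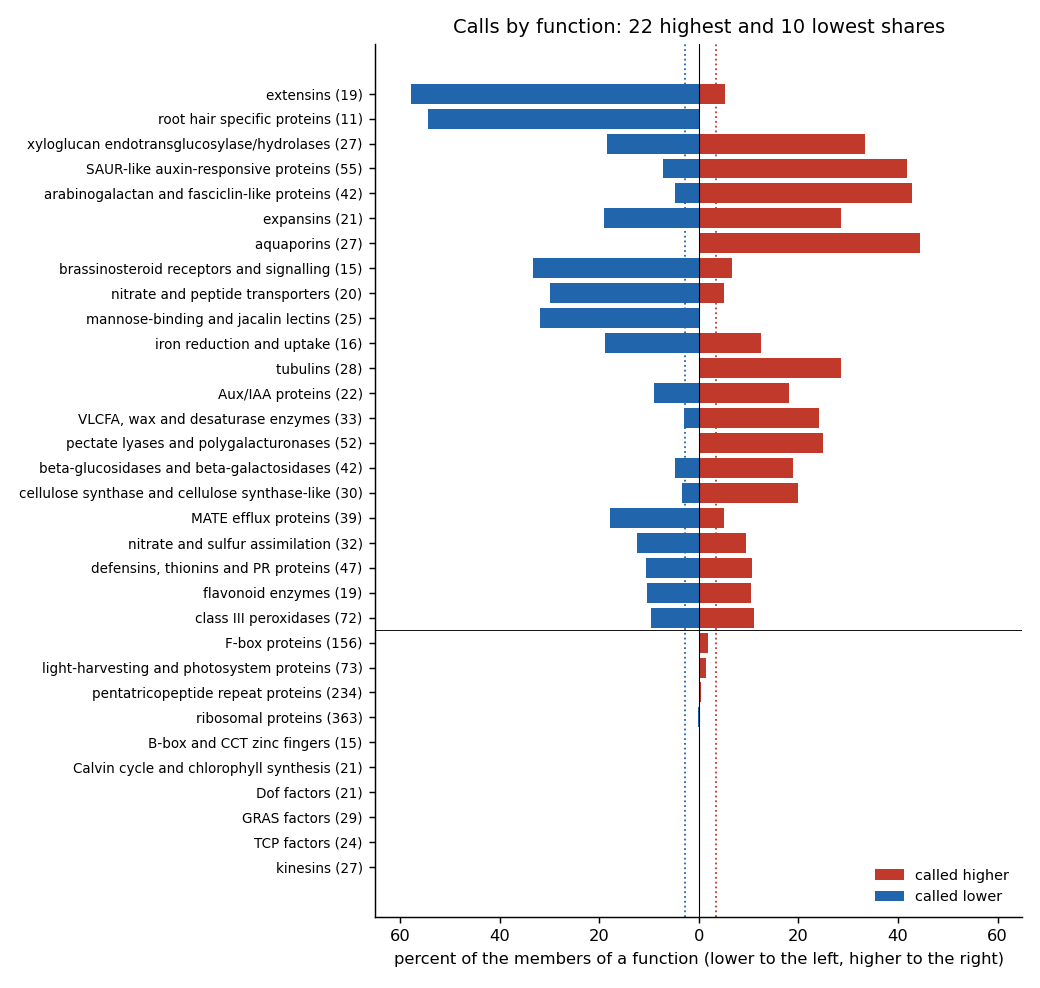
Percent of the members of each function called higher (right) and lower (left), for the 22 functions with the highest and the 10 with the lowest share of called genes among those with at least 10 members. The dotted lines mark the shares over all members, 3.46% higher and 2.74% lower. Extensins (57.9% lower), root hair specific proteins (54.5% lower), aquaporins (44.4% higher) and arabinogalactan and fasciclin-like proteins (42.9% higher) stand far outside these lines, and ribosomal proteins (0.275% lower) lie inside them.

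In the hormone's own pathway the surface receptors and part of the BZR family moved, and the steps between them did not pass the threshold. Of 15 signalling members, 5 fell and 1 rose, with a median effect of 0.04. The receptor BRI1 fell from 42.9 to 23.8 FPKM (log2 -0.85 ± 0.15), and its relatives BRL1 and BRL3, which also bind the hormone, fell from 4.09 to 2.47 and from 7.13 to 3.25 FPKM. The co-receptor BAK1 stood at 40.8 FPKM in mock and 36.5 in BL and was not called. Neither were BKI1, an inhibitor of the receptor (13.6 and 14.4 FPKM), the receptor substrates BSK1 (72.5 and 76.9 FPKM) and BSK2 (8.78 and 8.76 FPKM), the phosphatase BSL2 (24.0 and 25.8 FPKM) and the kinase BIN2 (119 and 159 FPKM, log2 0.42 ± 0.15). The BZR family split, with BEH2 falling from 53.5 to 6.91 FPKM (log2 -2.95 ± 0.18), BEH1 falling, BES1 rising from 114 to 210 FPKM (log2 0.88 ± 0.18) and BZR1, BEH3 and BEH4 not called. Hormone synthesis fell in 5 of 9 members (55.6%), and inactivation rose in 2 of 7 (28.6%). The floor admitted 2 of the 5 falls through mock alone, and 3 of the 7 synthesis members at the floor in both groups fell. The synthesis members not called were the sterol enzymes DWF5 (66.3 and 81.4 FPKM), STE1 (33.1 and 23.8 FPKM) and DWF1 (219 and 204 FPKM) and the reductase DET2 (26.4 and 23.8 FPKM). The 5 that fell were all cytochrome P450s, and none of these 4 is one. They were BR6OX2 (10.2 to 0.215 FPKM), the last enzyme of the pathway, DWF4 (13.5 to 1.18 FPKM), CPD (126 to 25.2 FPKM), CYP90D1 (5.80 to 0.979 FPKM) and ROT3 (7.70 to 3.86 FPKM). BR6OX1, by its name a relative of BR6OX2, was under the floor in both groups and was not called (log2 -0.97). The split by enzyme type therefore covers the 9 members only. BR6OX2 had the largest log2 fall of the called members that were above 0 in both groups. The inactivating enzymes that rose were BAS1 (5.07 to 18.2 FPKM) and BEN1 (10.7 to 19.0 FPKM). BRH1, a RING-type protein named for its response to brassinosteroids, fell from 84.1 to 34.7 FPKM (log2 -1.28 ± 0.17).

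Among auxin genes, the SAUR family of short growth-promoting proteins had the most rises. Of 55 members named SAUR-like, 23 rose (41.8%) and 4 fell (7.27%), the median effect was 0.41, and their summed FPKM went from 348 to 553. Of the 23 that rose, 11 were under 1 FPKM in mock, so that the floor admitted them through the BL value alone, and such genes had to be higher. Among the 36 members at or above the floor in both groups, 12 rose and 2 fell, with a median effect of 0.34. A further 7, of which 5 were above 0, had an unadjusted p-value under 0.05 in the authors' deposited table without being called. The largest log2 rises of those named were SAUR15 (0.273 to 4.70 FPKM, log2 4.11 ± 0.57), SAUR20 (0.759 to 11.6 FPKM) and SAUR28 (0.286 to 3.29 FPKM, log2 3.53 ± 0.66). All 3 are among the 11 that were under 1 FPKM in mock. AT4G38860 rose from 5.93 to 24.6 FPKM (log2 2.05 ± 0.21), and AT1G72430, the highest of the family in mock, rose from 48.3 to 71.8 FPKM. The 4 that fell were SAUR36 (18.5 to 11.0 FPKM, log2 -0.74 ± 0.19), AT3G60690 (13.7 to 8.81 FPKM), AT3G53250 (3.23 to 0.892 FPKM) and AT1G17345 (2.03 to 0.854 FPKM). The floor admitted AT3G53250 and AT1G17345 through mock alone, so both had to be lower. SAUR genes stand in tandem clusters, and 4 of the 6 runs of at least 3 neighbouring genes that all rose were such clusters. These were AT1G29430 to AT1G29460 on chromosome 1 (10302801 to 10308169), SAUR29 to SAUR26 on chromosome 3 (976933 to 983478), AT4G38840 to AT4G38860 on chromosome 4 (18125174 to 18130674) and SAUR19 to AT5G18030 on chromosome 5 (5963033 to 5968793). Neighbours in a cluster are related copies, and how the authors' counting divided reads between them is not given in the sources used here.

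Other auxin genes changed in smaller numbers. Of 22 Aux/IAA proteins, the repressors of auxin response, 4 rose and 2 fell. IAA19 (3.28 to 9.65 FPKM), SHY2 (9.35 to 18.9 FPKM, log2 1.02 ± 0.24) and ATAUX2-11 (49.5 to 79.7 FPKM) were among the rises, and IAA16 (94.4 to 60.3 FPKM) and IAA29 (1.14 to 0.341 FPKM) were the falls. The floor admitted IAA29 through mock alone, so it had to be lower. Of 12 auxin response factors, which those repressors bind, ARF6 (28.6 to 18.8 FPKM, log2 -0.61 ± 0.15) and ARF8 (15.8 to 9.47 FPKM, log2 -0.74 ± 0.16) fell and none rose. Of 11 auxin transport genes, the influx carrier LAX3 (16.1 to 5.12 FPKM) and the efflux carrier PIN4 (48.5 to 34.9 FPKM) fell and none rose. PID and WAG2, kinases that phosphorylate the PIN efflux carriers, both rose, from 3.40 to 6.57 FPKM (log2 0.95 ± 0.21) and from 2.21 to 6.06 FPKM (log2 1.46 ± 0.24).

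Genes of other growth hormones and peptides moved one by one. GA2OX2 (4.51 to 7.57 FPKM) and GA2OX8 (1.06 to 3.53 FPKM, log2 1.74 ± 0.34), which inactivate gibberellins, both rose, among 4 gibberellin oxidases and receptors. Of 9 gibberellin-regulated peptides, GASA6 (46.1 to 100.1 FPKM) and AT2G14900 (20.5 to 50.1 FPKM) rose, and GASA1 (862 to 373 FPKM, log2 -1.21 ± 0.15) and AT5G06645 (17.1 to 2.14 FPKM, log2 -3.00 ± 0.47) fell. Of 55 signal peptides 6 rose and 5 fell. RGF9 and RGF6, of a family of peptides that act on the root meristem, rose from 20.1 to 101.4 FPKM (log2 2.33 ± 0.18) and from 7.58 to 34.8 FPKM. RALF23, a peptide that raises extracellular pH, fell from 68.7 to 41.5 FPKM, and CLE2, a CLAVATA3-like peptide, fell from 4.47 to 2.15 FPKM. Of 19 genes sorted by name into ethylene synthesis and response 3 fell and none rose. Ethylene genes whose annotated names lack the words searched for are not counted here. Among the 3 falls were ACS7 and ACS8, which make the ethylene precursor. Of 29 cytokinin genes 2 fell and none rose.

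Extensins, rod-like hydroxyproline-rich proteins that are cross-linked into the wall, had the highest share of falls. Of 19 members 11 fell (57.9%) and 1 rose, and the median effect was -0.81. The 3 with the largest falls by effect were AT5G06630 (22.4 to 3.16 FPKM, log2 -2.82 ± 0.21), EXT10 (13.4 to 2.10 FPKM, log2 -2.68 ± 0.23) and EXT6 (21.1 to 3.92 FPKM, log2 -2.43 ± 0.20), whose promoters are printed with that of BEH2. AT4G08400 (13.4 to 4.21 FPKM), AT4G08410 (8.71 to 3.05 FPKM), AT5G59170 (1.40 to 0.244 FPKM), EXT13 (20.8 to 10.3 FPKM), EXT12 (25.1 to 13.5 FPKM) and LRX1 (8.27 to 3.97 FPKM), a leucine-rich repeat extensin of root hairs, fell as well. The floor admitted AT5G59170 through mock alone, and 10 of the 18 extensins at the floor in both groups fell. The most abundant extensins did not follow, with EXT4 at 786 and 846 FPKM, EXT3 at 580 and 728 FPKM, AT2G43150 at 394 and 436 FPKM and ELP at 233 and 292 FPKM, none of them called. The summed FPKM of the 19 went from 2313 to 2492, although most members fell. LRX2, the relative of LRX1, rose from 3.60 to 11.1 FPKM (log2 1.62 ± 0.20). AT5G06630, EXT10 and AT5G06645 are neighbours that fell together on chromosome 5 (2036502 to 2041928), and extensins are related copies whose read sharing was not analysed. The 17-base stretch shared by the 3 printed extensin promoters is the longest run common to all 3 and was searched for after these promoters were seen. It occurred on either strand in 5 of the 19317 promoters searched, and the 5 belonged to extensins that fell, EXT6, AT4G08400, AT4G08410, AT5G06630 and EXT10. Its first base lay at -74, -90, -69, -74 and -79 from the gene start, in that order. EXT6, AT5G06630 and EXT10 are the 3 it was taken from, so only AT4G08400 and AT4G08410 were found by the search.

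Root hair specific proteins, a set named for expression in hair cells, went the same way as most extensins. Of 11 members 6 fell and none rose, the effect was below 0 in all 11, and the median was -0.64. The floor admitted 4 of the 11 through mock alone, 2 of which fell, and 4 of the other 7 fell. RHS19, a peroxidase, fell from 22.3 to 6.34 FPKM (log2 -1.81 ± 0.21), RHS13 from 29.0 to 13.2 FPKM (log2 -1.14 ± 0.20), RHS18 from 6.92 to 2.77 FPKM and RHS14 from 1.46 to 0.336 FPKM (log2 -2.12 ± 0.41). RHS17 (1.49 and 1.42 FPKM) and PERK13 (3.44 and 2.50 FPKM) were not called. Their summed FPKM was 77.1 in mock and 33.7 in BL, and 51.0 in the untreated Col-0 of the overexpression experiment. Some other genes known from root hairs, picked here because they fell, were the xyloglucan enzymes XTH14 (19.0 to 6.00 FPKM), XTH26 (4.42 to 1.02 FPKM) and XTH12 (6.51 to 2.00 FPKM) and the proline-rich protein PRP3 (34.6 to 13.3 FPKM), beside the markers EXPA7 and EXPA18. The marker SHV2 was not called, and LRX2, the relative of the root hair extensin LRX1, rose from 3.60 to 11.1 FPKM. IRT1, the iron transporter of the root epidermis (1.53 to 0.641 FPKM), and FRO2, the ferric reductase of the same cells (1.05 to 0.336 FPKM, log2 -1.64 ± 0.35), fell as well, while the root phosphate transporter PHT1;1 was not called. IRT1 and FRO2 passed the floor through mock alone. The part of hair cell number in these falls was not tested.

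Arabinogalactan and fasciclin-like proteins, heavily glycosylated proteins of the wall and plasma membrane, rose in large numbers. Of 42 members 18 rose (42.9%) and 2 fell, the median effect was 0.47, and the summed FPKM went from 1521 to 2512. FLA9 rose from 127 to 385 FPKM (log2 1.60 ± 0.15), AGP7 from 26.8 to 76.1 FPKM (log2 1.50 ± 0.17) and AGP4 from 8.95 to 27.0 FPKM (log2 1.59 ± 0.30). The proteins AGP9 (93.1 to 202 FPKM), AGP12 (71.0 to 159 FPKM) and AGP15 (113 to 205 FPKM) rose from higher levels. FLA6 (2.35 to 0.661 FPKM) and AGP3 (20.6 to 8.77 FPKM, log2 -1.23 ± 0.21) fell. The floor admitted FLA6 through mock alone, so it had to be lower. AGP31 (162 and 154 FPKM) and FLA13 (183 and 206 FPKM), which stood highest in mock, were not called.

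**Figure D3:**
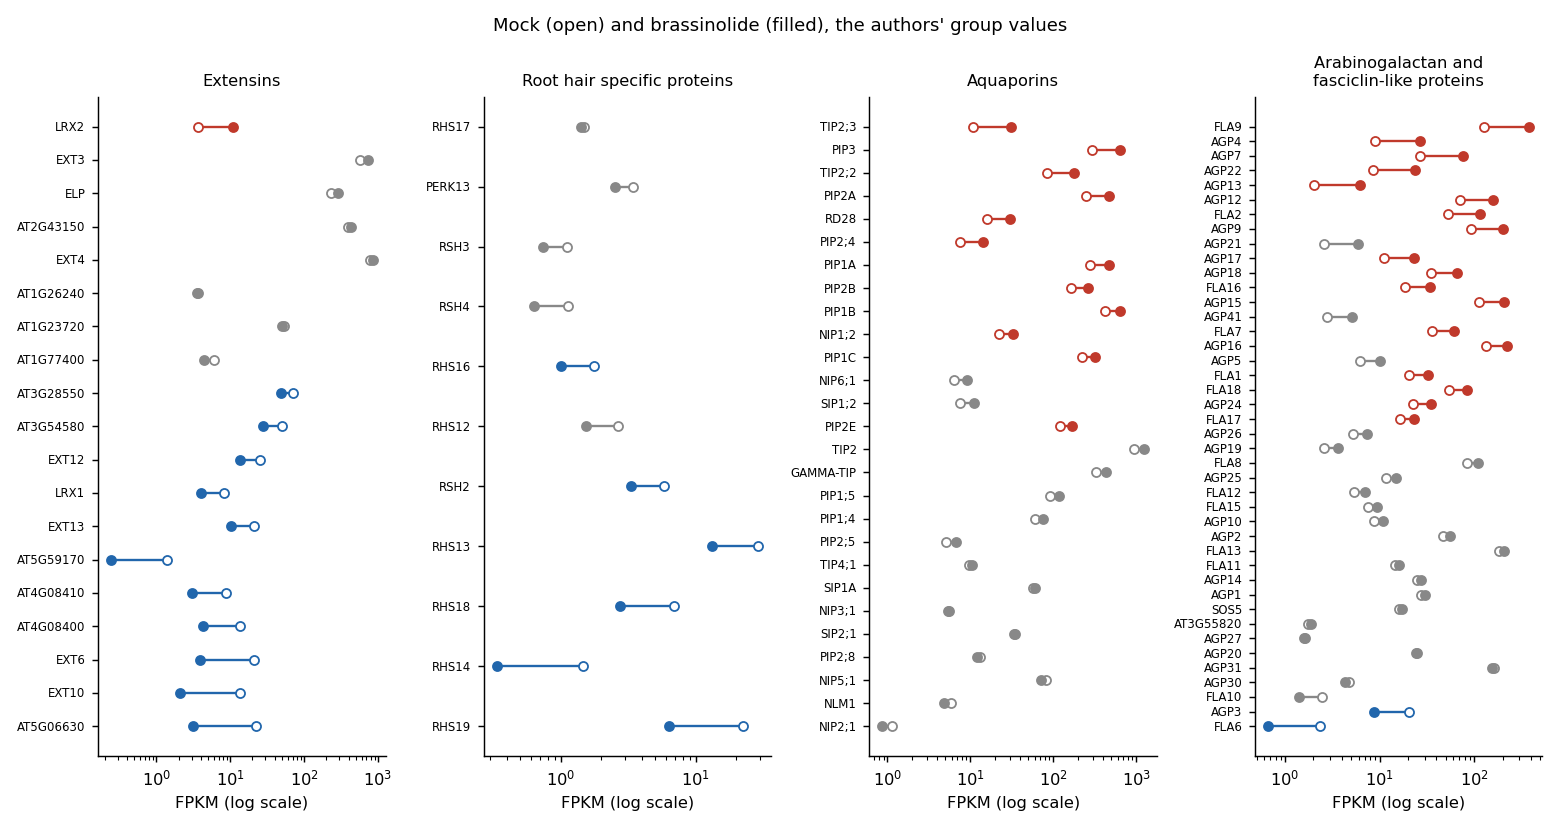
FPKM in mock (open circle) and in BL (filled circle), on a log axis, for each member of 4 functions: extensins, root hair specific proteins, aquaporins and arabinogalactan and fasciclin-like proteins. Called genes are in colour and the others in grey. Extensins and root hair specific proteins mostly move left (11 and 6 fell), and aquaporins and arabinogalactan and fasciclin-like proteins mostly move right (12 and 18 rose).

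Genes named for pectin enzymes or their inhibitors rose more often than they fell. Of 52 pectate lyases, polygalacturonases and related proteins 13 rose (25.0%) and none fell by Cuffdiff, with 13 more, 9 above 0 and 4 below, at an unadjusted p-value under 0.05 in the authors' deposited table. The floor admitted 2 of the 13 rises through BL alone, and 11 of the 49 members at the floor in both groups rose. AT3G06770 rose from 7.24 to 19.8 FPKM (log2 1.45 ± 0.19), AT3G07010 from 15.7 to 36.7 FPKM (log2 1.22 ± 0.16) and AT3G16850 from 43.8 to 76.2 FPKM. PGIP2 (36.1 to 67.5 FPKM), an inhibitor of polygalacturonase and not an enzyme, is also counted among the 13. Of 53 pectin methylesterases and their inhibitors 9 rose and 2 fell, led by ATPMEPCRB (6.78 to 20.2 FPKM, log2 1.57 ± 0.18). Among enzymes of xyloglucan, the main cross-linking glycan, 9 of 27 xyloglucan endotransglucosylases rose and 5 fell. XTH19 rose from 4.65 to 32.9 FPKM, XTH17 from 4.16 to 23.9 FPKM and XTH8 from 21.9 to 59.6 FPKM (log2 1.45 ± 0.17), and XTH24 fell from 979 to 550 FPKM. CSLC04, a synthase of the xyloglucan backbone, rose from 21.0 to 43.7 FPKM (log2 1.06 ± 0.16), and the galactosidase BGAL10, which trims xyloglucan side chains, rose from 23.5 to 49.3 FPKM (log2 1.07 ± 0.16). Of 21 expansins 6 rose and 4 fell, with EXLA2 (4.14 to 13.1 FPKM) and EXPA17 (1.10 to 3.21 FPKM) among the rises and EXPA15 (12.4 to 6.04 FPKM) among the falls.

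Several smaller families of secreted proteins split. Of 5 EXORDIUM proteins, named for a protein that mediates growth responses to brassinosteroids, EXL3 (64.1 to 124 FPKM) and EXL5 (24.6 to 36.5 FPKM) rose, while EXL2 (337 to 117 FPKM, log2 -1.53 ± 0.15) and EXL4 (74.6 to 20.7 FPKM, log2 -1.85 ± 0.16) fell. Of 9 SKU5-similar proteins, relatives of a wall protein of directional root growth, 4 rose and 1 fell, led by sks5 (117 to 267 FPKM, log2 1.19 ± 0.15). Of 72 class III peroxidases 8 rose and 7 fell, among them PRX52 (2.12 to 6.60 FPKM) upward and PRXCA (33.8 to 12.9 FPKM) downward. Of 104 other proline-rich proteins 6 rose and 10 fell, with AT5G15780 (45.9 to 122 FPKM, log2 1.40 ± 0.15) and HRGP1 (40.9 to 17.1 FPKM, log2 -1.26 ± 0.16) as examples of both directions.

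Water channels and microtubule subunits, both used by expanding cells, rose without a called fall. Of 27 aquaporins 12 rose (44.4%) and none fell by Cuffdiff, 5 more had an unadjusted p-value under 0.05 in the authors' deposited table, and the median effect was 0.47. Of the 12 channels annotated by name as plasma membrane intrinsic proteins (PIP) 8 rose, and their summed FPKM went from 1919 to 3196. RD28, a further PIP channel among the 27 that this name pattern missed, rose from 16.1 to 30.5 FPKM. PIP3 rose from 290 to 643 FPKM (log2 1.15 ± 0.15), TIP2;2 from 83.0 to 178 FPKM (log2 1.10 ± 0.15) and TIP2;3 from 10.9 to 30.6 FPKM (log2 1.49 ± 0.18). DELTA-TIP, a channel of the vacuole membrane counted apart from these 27 because of its annotated name, rose from 378 to 935 FPKM (log2 1.31 ± 0.16). The boron channel NIP5;1 (81.9 and 70.9 FPKM) and the plasma membrane channel PIP2;8 (13.1 and 12.0 FPKM) were not called. Of 28 tubulins and tubulin-related proteins 8 rose and none fell by Cuffdiff, with 3 more at an unadjusted p-value under 0.05 in the authors' deposited table. The alpha subunits TUA2, TUA4 and TUA6 rose, and TUA1, TUA3 and TUA5 were not called. In the beta subunits 5 of 9 rose, among them TUB8 (51.9 FPKM in mock, log2 0.96 ± 0.15), TUB6 (91.9 to 165 FPKM, log2 0.85 ± 0.16) and TUB1 (6.42 to 14.3 FPKM). The gamma tubulin TUBG1 (7.87 and 6.98 FPKM) and the tubulin cofactor KIS (42.5 and 49.8 FPKM) were not called. None of the 27 kinesins, motors that run on microtubules, was called by Cuffdiff, and 1 had an unadjusted p-value under 0.05 in the authors' deposited table.

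Several families of solute transporters fell more often than they rose. Of 20 nitrate and peptide transporters 6 fell and 1 rose, with the high-affinity carrier NRT2.5 (12.5 to 4.32 FPKM, log2 -1.54 ± 0.20) and the phloem carrier NRT1.7 (92.7 to 50.5 FPKM, log2 -0.88 ± 0.15) among the falls. Of the other major facilitators 8 fell and 1 rose, of 39 MATE efflux proteins 7 fell and 2 rose, and of 63 potassium and cation channels 6 fell and none rose. KT2/3, the phloem potassium channel, fell from 4.12 to 1.02 FPKM (log2 -2.01 ± 0.24), and the MATE protein AT3G23550 fell from 38.9 to 11.5 FPKM with its neighbours ALF5 and AT3G23570. Among 16 iron genes FRO2 and IRT1 fell, as did FRO3 (36.4 to 22.3 FPKM), while FRO6 (10.9 to 23.5 FPKM, log2 1.10 ± 0.16) and FRO7 (10.4 to 15.5 FPKM), reductases known from shoots, rose. The floor admitted FRO2 and IRT1 through mock alone. Of 51 sugar transporters 4 rose and none fell, led by the monosaccharide carrier STP1 (253 to 518.4 FPKM, log2 1.04 ± 0.16). Of 6 organic cation transporters 3 rose, OCT6 (6.19 to 12.3 FPKM), OCT3 (13.8 to 22.9 FPKM) and OCT2 (1.15 to 2.39 FPKM).

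Enzymes of surface lipids had more rises than falls. Of 33 members of very-long-chain fatty acid, wax and desaturase synthesis 8 rose and 1 fell, with a median effect of 0.29. CER4, which makes the primary alcohols of cuticular wax, rose from 0.150 to 1.60 FPKM (log2 3.42 ± 0.50), and KCS9, a fatty acid elongase, rose from 28.7 to 54.3 FPKM (log2 0.92 ± 0.15). The floor admitted CER4 through BL alone, so it had to be higher. Of the 32 members at the floor in both groups, 7 rose and 1 fell. FAD3, a desaturase of membrane lipids, fell from 113 to 73.3 FPKM. Of 54 GDSL lipases 10 rose and 1 fell, among them AT4G28780 (8.72 to 32.3 FPKM, log2 1.89 ± 0.17), AT4G18970 (30.7 to 100.0 FPKM, log2 1.70 ± 0.16) and AT3G16370 (84.7 to 243 FPKM, log2 1.52 ± 0.15). Lipid transfer proteins divided evenly, with 6 of 65 rising and 6 falling. LTPG2, a lipid transfer protein of cuticle lipid export, rose from 46.3 to 98.6 FPKM, and AT4G22470 fell from 115 to 25.6 FPKM (log2 -2.17 ± 0.16).

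Genes of chemical defence and detoxification fell in several families. Of 25 mannose-binding and jacalin lectins 8 fell (32.0%) and none rose, led by AT5G35940 (4.02 to 0.989 FPKM, log2 -2.02 ± 0.29), AT2G25980 (25.7 to 9.61 FPKM, log2 -1.42 ± 0.18) and AT1G52070 (28.4 to 11.1 FPKM, log2 -1.35 ± 0.18). The floor admitted 2 of these 8 lectins through mock alone, AT5G35940 among them. Of 100 UDP-glycosyltransferases, which attach sugars to small molecules, 10 fell and 1 rose, led by UGT73B4 (6.85 to 1.25 FPKM, log2 -2.46 ± 0.42). Of 48 glutathione S-transferases 4 fell and none rose, among them the abundant GSTF9 (917 to 595 FPKM). Cytochrome P450s changed both ways, with 10 of 157 rising and 16 falling, and the falls include the hormone synthesis enzymes. Of 47 defensins, thionins and pathogenesis-related proteins 5 rose and 5 fell. PDF1.2, a defensin induced by jasmonate and ethylene, rose from 3.74 to 17.3 FPKM (log2 2.21 ± 0.29). LOX2, a lipoxygenase of jasmonate synthesis, fell from 51.6 to 9.14 FPKM, with untreated Col-0 at 189 FPKM. MBP2, a myrosinase-binding protein of glucosinolate defence, fell from 3.95 to 1.94 FPKM, while the indole glucosinolate methyltransferases IGMT1, IGMT2 and IGMT3 rose. Of 12 members sorted by name as glucosinolate enzymes 1 fell and none rose. In primary metabolism, the sulfite reductase SIR fell from 142 to 83.5 FPKM (log2 -0.77 ± 0.15), and the amylases CT-BMY (55.7 to 82.0 FPKM) and BMY3 (22.6 to 44.2 FPKM) rose.

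Most transcription factor families had called members in both directions. Of 78 AP2/ERF factors 11 fell (14.1%) and 4 rose, with PLT2, a factor of the root stem cell niche, falling from 1.42 to 0.503 FPKM and ERF12 from 2.14 to 0.744 FPKM, and with ESE3 rising from 2.81 to 20.2 FPKM. The floor admitted 3 of these 11 falls through mock alone, PLT2 and ERF12 among them. Of 108 MYB factors 9 fell and 4 rose. The floor admitted 4 of the 9 through mock alone, and such genes had to be lower. Among the 99 at or above the floor in both groups 5 fell and 4 rose. MYB55 fell from 3.22 to 0.451 FPKM (log2 -2.84 ± 0.37), MYB90, an activator of anthocyanin synthesis, from 1.35 to 0.352 FPKM, and MYB29, an activator of aliphatic glucosinolate synthesis, from 1.13 to 0.286 FPKM, while MYB61 rose from 1.03 to 3.03 FPKM. Of 55 WRKY factors 6 rose and 4 fell. WRKY70 (32.8 to 61.6 FPKM, log2 0.91 ± 0.16), WRKY62 (1.00 to 2.36 FPKM) and WRKY38 (1.75 to 3.60 FPKM), which act in salicylate-related defence, rose, and WRKY49 (29.7 to 8.85 FPKM, log2 -1.75 ± 0.19) and WRKY40 (6.16 to 2.42 FPKM) fell. Of 66 homeobox factors 4 fell and 2 rose. The leucine zipper proteins HAT1 (24.5 to 8.99 FPKM, log2 -1.45 ± 0.18), HAT3 (10.5 to 5.56 FPKM) and HB5 (79.6 to 40.3 FPKM, log2 -0.98 ± 0.15) fell, and AtHB23 rose (log2 1.18). Of 91 bHLH factors 6 rose and 4 fell, with HEC1 (3.29 to 7.49 FPKM) rising beside the atypical bHLH KDR (3.19 to 29.0 FPKM, log2 3.19 ± 0.23). ABI5, a bZIP factor of abscisic acid response, fell from 2.30 to 0.871 FPKM, and FD, a bZIP factor of flowering, rose from 5.66 to 9.81 FPKM. The floor admitted ABI5 through mock alone, so it had to be lower. No member of 21 Dof factors, 24 TCP factors, 29 GRAS factors or 15 B-box and CCT zinc fingers was called by Cuffdiff, with 0, 1, 5 and 2 at an unadjusted p-value under 0.05 in the authors' deposited table. In the TCP factors 20 of 24 effects were below 0.

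Cell cycle and kinase genes were called about as often as all members. Of 79 cyclins and CDKs 3 fell and 1 rose, among them the D-type cyclin CYCD3;3 (13.4 to 8.12 FPKM) and the inhibitor ICK6 (4.53 to 1.89 FPKM) downward. Of 226 receptor-like kinases 9 rose and 6 fell (6.64%), and of 329 RING and U-box proteins 6 rose and 8 fell (4.26%). The 2001 hypothetical and transmembrane proteins with no described function held 80 rises and 33 falls (5.65%), with AT1G55335 (71.1 to 243 FPKM, log2 1.77 ± 0.18) and AT5G50335 (11.8 to 54.4 FPKM) rising and AT5G57785 (10.9 to 0.673 FPKM, log2 -4.02 ± 0.56) falling. The floor admitted AT5G57785 through mock alone. Others of the largest falls lie outside the functions, such as AT5G01740, of the nuclear transport factor 2 family (32.0 to 2.17 FPKM, log2 -3.88 ± 0.27), and AT5G22580, a stress-responsive barrel-domain protein (31.9 to 2.54 FPKM, log2 -3.65 ± 0.25).

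Ribosomal, pentatricopeptide repeat and photosynthesis proteins had few calls, while those of ribosome assembly fell more often than members at large. Of 363 ribosomal proteins 1 fell and none rose (0.275%), 17 more, 14 of them below 0, had an unadjusted p-value under 0.05 in the authors' deposited table, and 297 of the 363 effects were below 0, with a median of -0.15. Nucleolar and ribosome assembly proteins had a median of -0.25, 57 of 65 effects below 0, 5 falls (7.69%, against 2.74% of all members) and 19 more, 17 of them below 0, at an unadjusted p-value under 0.05 in the authors' deposited table. FIB2, a fibrillarin that methylates ribosomal RNA, fell from 51.9 to 29.9 FPKM (log2 -0.80 ± 0.16), and NOP56, of the same particle, fell from 84.7 to 56.4 FPKM (log2 -0.59 ± 0.15). FIB1 (132 and 103 FPKM) and the nucleolin NUC-L1 (198 and 145 FPKM) were not called. Of 234 pentatricopeptide repeat proteins, most of which act on organellar RNA, 1 rose and none fell, while 182 effects were below 0 and the median was -0.13. Histones leaned the other way, with 39 of 45 effects above 0 and a median of 0.19, and 1 fall, HTA7 (41.2 to 24.3 FPKM). Of 73 light-harvesting and photosystem proteins PSBO2 alone was called (260 to 398 FPKM), with 3 more at an unadjusted p-value under 0.05 in the authors' deposited table. Of 21 genes of the Calvin cycle and chlorophyll synthesis none was called by Cuffdiff, and 3 had an unadjusted p-value under 0.05 in the authors' deposited table.

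Among the most abundant called genes, AZI1, a lipid transfer-like protein of systemic immunity, fell from 995 to 462 FPKM (log2 -1.11 ± 0.15), CWLP, a proline-rich wall linker protein, from 1108 to 672 FPKM and the peroxidase PRXR1 from 1139 to 721 FPKM. AT1G62480, a vacuolar calcium-binding-like protein, rose from 842 to 1688 FPKM (log2 1.00 ± 0.16), and AT1G12080, which has the same annotated name, rose from 119 to 376 FPKM (log2 1.66 ± 0.16). SEN1, a gene of darkness and senescence (1035 to 1470 FPKM), AT3G15450 (1355 to 1958 FPKM) and the carbonic anhydrase CA1 (711 to 1053 FPKM) rose by smaller folds.

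The untreated Col-0 seedlings of the overexpression experiment were the same age and came from a separate Cuffdiff run, so their values are set beside mock as levels only, without a test. Of the 670 genes that rose with BL, untreated Col-0 lay between mock and BL for 238, below both for 320 and above both for 112. Of the 531 that fell, it lay between for 185, below both for 167 and above both for 179. Untreated Col-0 was more than 2-fold away from mock for 2288 members (11.8%) and for 376 of the called genes (31.3%). Large gaps were seen for SEN1 (1035 FPKM in mock and 76.3 in untreated Col-0), CWLP (1108 and 93.4 FPKM) and the summed light-harvesting and photosystem proteins (27033 and 107222 FPKM). Among the SAUR genes, SAUR15 (0.273 and 5.26 FPKM) and SAUR20 (0.759 and 14.0 FPKM) stood higher in untreated Col-0 than in mock and near their BL values of 4.70 and 11.6 FPKM. The 2 control groups thus differed in level at many of the genes called with BL.

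The brassinolide changes were set beside those of the BEH2-YFP and BZR1-YFP lines, each against the untreated Col-0, which both lines share. The difference of the log2 changes, hormone less line, was divided by its standard error and read against the normal distribution (two-sided), with adjustment over all genes tested in both tables. This is an approximation, since an exact test needs values per library. The difference was called at an adjusted p under 0.05 for 9.06% of genes with BEH2-YFP and 2.44% with BZR1-YFP. In BEH2-YFP 12.6% of members tested were called (7.9% higher and 4.75% lower). Of 667 genes that rose with BL and were tested in both, 208 were higher in BEH2-YFP and 42 lower, and of 527 that fell, 137 were lower and 102 higher. The genes called the same way were 28.9% of the brassinolide calls and 14.1% of the calls in the line. In BZR1-YFP, where 1.59% of members were called (1.16% higher and 0.43% lower), 41 of 668 rises were also higher and 6 lower, and 21 of 527 falls were also lower and 31 higher. The genes called the same way were 5.19% of the brassinolide calls and 20.2% of the calls in that line. The difference itself was called for 540 of 1194 brassinolide genes with BEH2-YFP and 391 of 1195 with BZR1-YFP. These genes were chosen for their change with BL, which by itself favours a larger change with BL than in the line. With BEH2-YFP, 267 rises lay above and 48 below the line's change, and 215 falls lay below and 10 above it. With BZR1-YFP these were 193 and 0, and 198 and 0.

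Functions of the brassinolide response were called in the lines in differing numbers. Root hair specific proteins had 6 falls with BL, 7 in BEH2-YFP and 0 in BZR1-YFP, and extensins had 11, 8 and 5 falls, with 1, 5 and 0 rises. SAUR-like proteins had 23 rises with BL, 23 in BEH2-YFP and 10 in BZR1-YFP, with 4, 1 and 0 falls. Aquaporins had 12, 5 and 2 rises, with 0, 1 and 0 falls, and arabinogalactan and fasciclin-like proteins had 18, 5 and 2 rises, with 2, 4 and 0 falls. Tubulins had 8 rises with BL and 0 in both lines, with 1 fall in BEH2-YFP, and pectate lyases and polygalacturonases had 13 rises with BL against 2 rises and 9 falls in BEH2-YFP. Over all members the share called higher was 3.46% with BL, and over those tested it was 7.9% in BEH2-YFP and 1.16% in BZR1-YFP. The shares called lower were 2.74%, 4.75% and 0.43%. Counts from the 3 comparisons therefore do not measure how far a line shares the response. A difference was tested for single genes alone.

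Within these functions, some single genes differed between hormone and line. AT3G06770, the pectate lyase-like protein, stood at 12.7 FPKM in untreated Col-0 and 10.8 in BEH2-YFP, and its change with BL was higher by 1.68 ± 0.27 on the log2 scale. TUB8 stood at 58.2 FPKM in untreated Col-0 and 60.2 in BEH2-YFP, a difference of 0.91 ± 0.23, and FLA9 at 72.8 and 98.0 FPKM, a difference of 1.17 ± 0.23. The difference was called for all 3, whose change was higher with 6 h of hormone than in the line. All 3 were named for their rise with BL, and that choice favours a difference in this direction. SAUR9 stood at 1.85 and 15.9 FPKM, and its difference was -0.05 ± 0.46, which was not called and has an error too wide to call the responses alike. RHS19 stood at 14.5 and 6.34 FPKM (difference -0.62 ± 0.31) and STP1 at 41.3 and 96.0 FPKM (difference -0.18 ± 0.24). Neither of these differences passed the threshold.

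Some genes called in both went in opposite directions, and the difference was called for each of those given here. GASA1 fell with BL and rose from 178 to 1625 FPKM in BEH2-YFP (difference -4.40 ± 0.25). AT4G22470, the lipid transfer protein, fell with BL and rose from 2.24 to 116 FPKM in BEH2-YFP (difference -7.86 ± 0.32) and to 11.2 FPKM in BZR1-YFP. AZI1 fell with BL and rose from 33.9 to 537 FPKM in BEH2-YFP (difference -5.09 ± 0.25). For GASA1, AT4G22470 and AZI1, mock at 862, 115 and 995 FPKM stood far above the untreated Col-0. PDF1.2 rose with BL and fell from 293 to 1.72 FPKM in BEH2-YFP (difference 9.63 ± 0.48), and its mock level of 3.74 FPKM stood far below the untreated Col-0. WRKY70 rose with BL and fell from 38.9 to 13.3 FPKM (difference 2.46 ± 0.25).

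**Figure D4:**
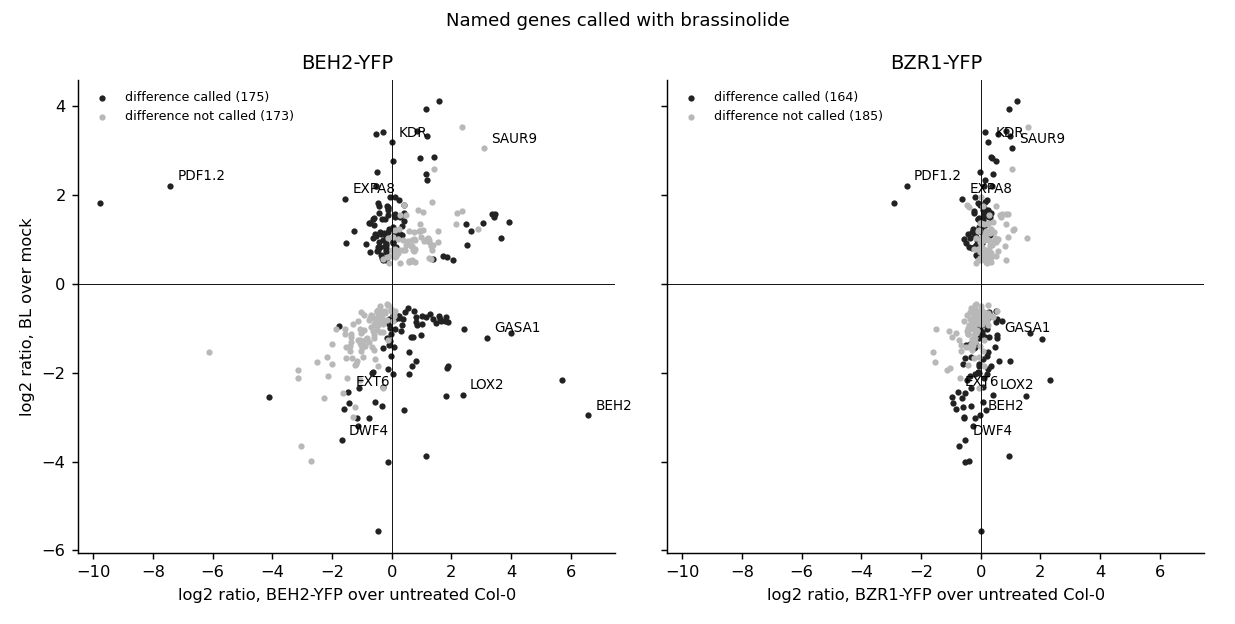
Log2 change with brassinolide (vertical axis) against log2 change over untreated Col-0 in BEH2-YFP (left, horizontal axis) and BZR1-YFP (right) for the named genes called with brassinolide. Choosing genes by their change with brassinolide favours a called difference. Genes whose difference was called are in black, 175 of 348 with BEH2-YFP and 164 of 349 with BZR1-YFP, and the others in grey; points of the BZR1-YFP plot lie in a narrower band around 0 on the horizontal axis, and BEH2, far right on the left plot, is the gene of that line's transgene.

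BZR motifs were counted in the promoters of 19317 members, over 300 bases from 250 before to 50 after the gene start and on both strands. Either CGTGTG or CGTGCG occurred in 8.53% of all promoters, in 16.8% of those of genes that fell (89 of 531), in 6.42% of those of genes that rose (43 of 670) and in 8.37% of the others. CGTGTG was in 13.7% of the promoters of falling and 5.52% of rising genes, against 6.74% of all, and CGTGCG in 4.33%, 1.04% and 2.12%. The G-box CACGTG was in 10.5%, 6.57% and 8.63%. The motifs thus occurred in a larger share of the genes that fell than of those that rose. Among the functions, 7 of the 11 extensins that fell held a BZR motif and none of the 8 others did. In 5 of these 7 the match lies within the same 17-base stretch, shared by related copies, so the 7 are not independent occurrences. By contrast none of the 23 SAUR-like genes, 18 arabinogalactan and fasciclin-like genes and 12 aquaporins that rose held a BZR motif. Neither did any of the 5 synthesis genes that fell, in this window. Of the 4 expansins that fell 2 held one, and of the 6 root hair specific genes that fell 1 did.

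**Figure D5:**
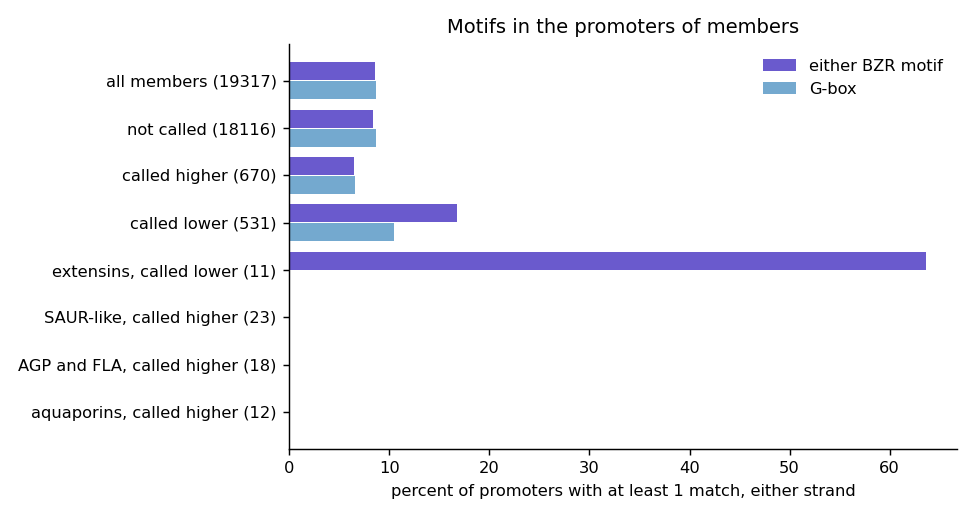
Percent of promoters (300 bases around the gene start) that hold either BZR motif or the G-box, for all members, for called genes in each direction, for genes not called and for functions of called genes. The share with a BZR motif is 16.8% for genes that fell against 8.53% for all members, and 63.6% for the 11 extensins that fell. In 5 of those extensins the match lies within the same 17-base stretch.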

How the data were processed

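Libraries were made from total RNA (Macherey-Nagel kit) with the stranded TruSeq mRNA kit, per the labels' protocols. Reads were processed with TopHat2 2.0.13, Cuffdiff 2.2.0 and TAIR10, per the submitters' processing notes; whether counting used strand is not given in the sources used here. Deposited by the authors were 1 FPKM value per gene and group, pooled over 2 libraries, and, per the file headers, a log2 fold change, a test statistic (a score), a p-value and a q-value per gene. The smallest p-value in the authors' deposited table is 5e-05, reached by 641 members, whose q-value there is 0.00175. The deposited annotation columns name TAIR10.1, the build of the reference used for coordinates and promoters. Depth is unknown and no library could be examined singly, so the authors' q-values stand in place of a model per library.

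Members, functions and lists were chosen with earlier results of these data known, and the word patterns that sort names into functions were corrected after names and results had been seen. The standard error is the log2 change over the test statistic and over a constant of 1.43, set so that the statistic gives the deposited p-values as normal deviates, over p-values between 0.0002 and 0.9. Differences from the lines were adjusted by Benjamini and Hochberg over 22079 and 22043 genes; the procedure was tested on simulated data. The rule for naming genes took the 15 largest rises and 15 largest falls among called genes, up to 3 of each per function, the 5 most abundant called per direction and all genes of hormone synthesis, inactivation and signalling (383 genes in all with the organ markers), of which the text prints a part. Other members of functions shown gene by gene, neighbours in runs and genes at the floor or at 0 were named after their values were seen. A gene in a Cuffdiff locus with others (191 of the called members, 15.9%, against 32.3% of all members) may share reads. Alternatives were other thresholds, floors, pseudocounts and a centring on the median. Computations ran in Python 3.11.15 with pandas 2.3.3, numpy 2.4.6 and SciPy 1.17.1, and plots were drawn with matplotlib 3.10.9.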

Additional observations from a re-analysis of the deposited data

How the results depend on the processing

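No paired analysis was possible because the files hold 1 value per group, so the block on replicate number, leaving out each library and the model per library were not run. At the authors' own threshold, 2-fold with a q-value below 0.1, 247 genes rose and 227 fell, against 670 and 531. At a q-value under 0.01 the falls numbered 352, while the rises stayed within 1.5 times. With a pseudocount of 5 FPKM, 81 members were past 2-fold upward and 56 downward, against 222 and 197; pseudocounts of 0.1 and 1, centring and a floor on the mean of both groups kept both within 1.5 times. At an adjusted p under 0.01, 1322 genes differed from BEH2-YFP and 339 from BZR1-YFP, against 2001 and 537. The effect of 36 named genes under the pseudocount of 0.1 and of 13 under that of 1 moved by more than its standard error, and of none under the centring. With a floor of 5 FPKM the count of called genes moved by over 1.5 times in 20 of 90 functions (33 at a q-value below 0.01), and the median effect changed sign and by over 0.1 in the EXORDIUM proteins (0.17 to -0.48), signal peptides (-0.03 to 0.15) and iron genes (-0.15 to 0.02); the cause was not tested. Standard errors at low levels (median 0.289 from 1 to 5 FPKM) limit what could be called.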

Other observations

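Outside the protein-coding members, 47 genes were called, 18 of them not protein-coding and 29 protein-coding genes under 1 FPKM in both groups (11 higher and 18 lower). The 18 were 6 lncRNAs, 5 pseudogenes, 4 ncRNAs, 2 transcribed pseudogenes and 1 other RNA. EXT11, annotated as a pseudogene, fell from 13.1 to 2.86 FPKM, as 11 protein-coding extensins did. The lncRNAs AT1G08757 (29.7 to 8.88 FPKM) and AT5G08275 (88.3 to 56.0 FPKM) fell, and the lncRNA AT2G08780 (26.4 to 58.5 FPKM) and the ncRNA AT3G61198 (13.3 to 24.4 FPKM) rose. AT1G08757 stood at 0.0913 FPKM in untreated Col-0, far below its mock value.

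Among the genes under the floor were more of root hairs. RSL2, a bHLH activator of root hair growth, fell from 0.962 to 0.288 FPKM, and G3Pp2, annotated as a root hair specific protein, fell from 0.789 to 0.0507 FPKM. PAP14, a purple acid phosphatase, rose from 0.0614 to 0.947 FPKM, and HB4, a leucine zipper factor related to HAT1 and HAT3, fell from 0.948 to 0.296 FPKM. These genes were named after their values were seen, and their levels are low.

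Of the genes that rose, 116 (17.3%) stood next to another that rose, against 6.76% of all members next to a gene that rose. Of those that fell, 63 (11.9%) stood next to another that fell, against 5.4% of all members. There were 9 runs of at least 3 with 29 genes, 6 runs of rises and 3 of falls. Beside the SAUR and extensin runs, the indole glucosinolate methyltransferases IGMT1 (42.5 to 77.4 FPKM), IGMT3 (5.52 to 9.92 FPKM) and IGMT2 (2.76 to 4.92 FPKM) rose together on chromosome 1 (7386991 to 7396784). ABCG18, TT5 and ABCG19 fell together on chromosome 3 (20424766 to 20436288), a transporter pair around a flavonoid enzyme. The median protein length was 336 residues for genes that rose, 379 for genes that fell and 378 for all members.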
